A study of Homo sapiens with 12 samples.

Results

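The genes described are zinc finger genes of human chromosome 19, that is, protein-coding genes of this chromosome named ZNF and a number. They were selected on their measured level: a mean of at least 1 FPKM (fragments per kilobase of gene, scaled to library size, the unit inferred for the deposited values) over the 6 libraries of Hep-G2, of BE(2)-C or of both. Of 240 such genes in the deposited tables, 158 passed, 131 of them in Hep-G2 and 120 in BE(2)-C. In both lines 93 passed, 38 passed in Hep-G2 alone and 27 in BE(2)-C alone. Just inside the minimum were ZNF430 with a mean of 1.01 FPKM and ZNF549 with 1.03, and just outside were ZNF229 with 0.994 and ZNF43 with 0.993. The siI1 libraries counted in this mean, so the choice was not free of the knockdown effect. With a siC mean under 1 FPKM in both lines, 11 genes passed through siI1 alone, ZNF781, ZNF836 and ZNF429 among them, and with a siI1 mean under 1 FPKM in both lines 0 passed through siC alone. Counts for each line, for both lines and for the difference are therefore also given for the 149 genes chosen on siC alone. These had a siC mean of at least 1 FPKM in a line. Other counts of zinc finger genes, such as those by cluster and by promoter word, are for the 158 only.

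Poly-A-RNA was sequenced from Hep-G2, an established hepatoblastoma line, and from BE(2)-C, an established neuroblastoma line. In each line, cells received either a control siRNA (siC) or a pool of siRNAs directed against IGF2BP1 (siI1), and RNA was taken 72 h after transfection. Each of the 4 groups held 3 libraries, 12 in all, and siI1 was compared with siC within each line to see which transcripts depend on IGF2BP1. IGF2BP1 is an RNA-binding protein of fetal tissue and tumours that stabilises many of the mRNAs it binds. Hep-G2 received 15 nM of siRNA and BE(2)-C 25 nM by the authors' account, so line and dose cannot be told apart in any difference between the lines. Each tumour type was represented by a single line and the pool by a single composition.

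Most human zinc finger genes of this kind encode proteins with a row of C2H2 fingers, short loops held around a zinc ion by cysteines and histidines, with which they read DNA. Many carry a KRAB domain in front of the fingers, which recruits the co-repressor TRIM28 and, through it, enzymes and proteins of silent chromatin, and many of their targets are transposable elements. The genes arose by repeated tandem duplication, and chromosome 19 holds the largest clusters of them.

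The repeated finger is visible in the coding sequence, since neighbouring fingers are joined by a conserved linker. Searching the coding strand for the letters ACNGGNGANAANCC, which cover most of that linker, gave a median of 5 copies in the 157 genes with an annotated coding sequence, with a range of 0 to 25. At least 4 copies were found in 99 of the 157, and 29 held none, while 220 of 19360 other protein-coding genes reached 4. ZNF121 is shown because it is among the genes with the clearest responses described further on. The stretch is 300 bases of hg38 at chr19:9566315-9566614, on the minus strand and within exon 4 of 4, from the coding sequence, with the linker letters in capitals. In it, 3 linkers stand 84 bases apart, the length of a single finger with its linker.
ZNF121: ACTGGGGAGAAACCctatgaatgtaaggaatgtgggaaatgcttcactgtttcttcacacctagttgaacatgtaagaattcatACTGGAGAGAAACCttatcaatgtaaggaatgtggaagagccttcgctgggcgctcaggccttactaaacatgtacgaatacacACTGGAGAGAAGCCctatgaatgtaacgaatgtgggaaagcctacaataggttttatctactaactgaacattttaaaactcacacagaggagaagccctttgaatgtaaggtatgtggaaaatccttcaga

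IGF2BP1 itself was measured first. In Hep-G2 it had 48.5, 46.6 and 50.8 FPKM in the siC libraries and 12.6, 10.7 and 10.7 FPKM in the siI1 libraries. The siC libraries of BE(2)-C held 21.3, 20.6 and 21.6 FPKM of it and the siI1 libraries 4.85, 4.75 and 4.87 FPKM. The groups stood far apart in both lines, and the log2 fold change was -2.10 (SE 0.08, limma adjusted p = 7.8e-06) in Hep-G2 and -2.11 (SE 0.05, limma adjusted p = 1.5e-05) in BE(2)-C. The difference between these effects was 0.02 (limma adjusted p = 0.91). The lines were told apart by their markers. The hepatic genes ALB, AFP, APOA1, TTR and HNF4A summed to a median of 8236 FPKM in Hep-G2 and 0.101 FPKM in BE(2)-C, ALB being the most abundant. HAND2, MYCN, GATA3 and ISL1, markers of sympathetic neuroblasts, summed to a median of 2090 FPKM in BE(2)-C and 0.0257 FPKM in Hep-G2, with MYCN the most abundant. AFP and HNF4A were listed at 0 in all BE(2)-C libraries, and HAND2 and ISL1 in all Hep-G2 libraries. Reads assigned to genes, recovered from the deposited values, numbered 12852988 to 15721210 per library.

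Most of the 158 zinc finger genes were weakly expressed, with a median of 1.79 FPKM in Hep-G2 and 1.72 FPKM in BE(2)-C. The 3 highest were ZNF428 at a mean of 27.6 FPKM, ZNF787 at 18.5 and ZNF114 at 15.7 in Hep-G2. ZNF428 at 32.5, ZNF581 at 29.9 and ZNF787 at 25.3 were the 3 highest in BE(2)-C. The tables were normalised separately, so levels are set side by side and not tested between the lines. ZNF428 and ZNF787 did not pass the test in either line. For ZNF428 the log2 fold change was 0.24 in Hep-G2 (limma adjusted p = 0.11) and -0.05 in BE(2)-C (limma adjusted p = 0.65). For ZNF787 it was 0.06 (limma adjusted p = 0.69) and -0.15 (limma adjusted p = 0.14), respectively.

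**Figure D1:**
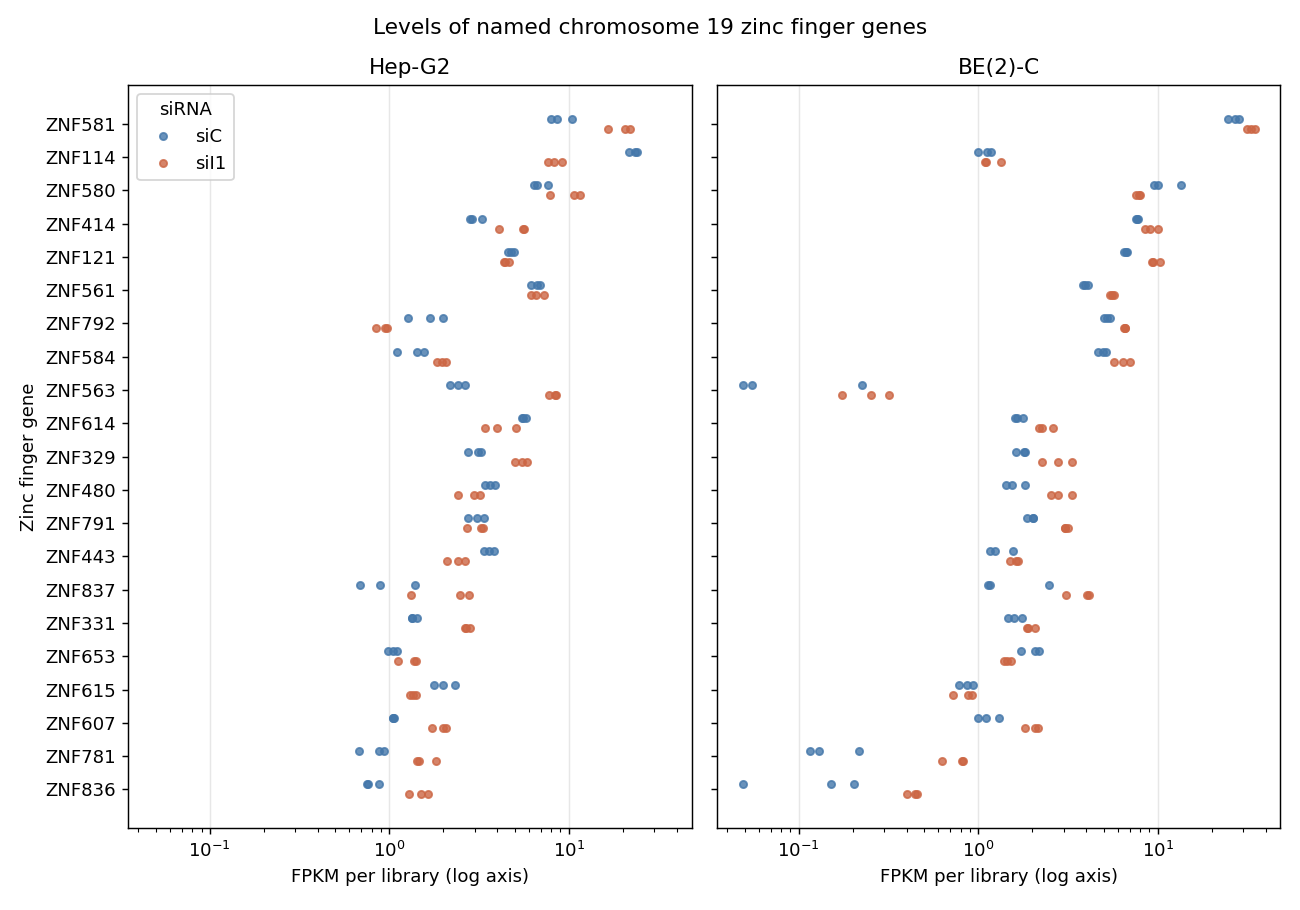
FPKM per library (x axis, log scale) of 21 named zinc finger genes (y axis) in Hep-G2 (left) and BE(2)-C (right), blue for siC and orange for siI1, with 1 point per library and 3 libraries per group. ZNF563 and ZNF331 stand apart upwards and ZNF114 downwards in Hep-G2, whereas ZNF121, ZNF561 and ZNF791 stand apart upwards in BE(2)-C with mixed groups in Hep-G2.

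In BE(2)-C the zinc finger genes moved mostly upwards upon IGF2BP1 knockdown. Of the 158, 157 passed the filter on low values (at least 0.1 FPKM in at least 3 of the 6 libraries), all but ZNF600. Of these, 56 were higher and 2 lower at a limma adjusted p under 0.05, and 99 did not pass. The higher genes made up 35.7% of those tested and the lower ones 1.27%, beside 13.3% higher and 14.8% lower over all 18656 genes tested. Protein-coding genes of like level or GC content had fewer lower genes than that. With a higher line mean of 1 to 2 FPKM, 16.85% were higher and 7.74% lower, and at 2 to 4 FPKM 17.24% and 11.41%. With a transcript GC content under 40%, 19.9% were higher and 7.45% lower. In all 58 the siC and siI1 libraries did not overlap, as in 99.9% of the genes of every type that passed. Among genes chosen on siC alone 50 of 148 were higher and 2 lower, with a median of 0.31. The median log2 fold change was 0.33, against -0.01 over all protein-coding genes, and it kept its sign under each scaling of the libraries that was tried. Of the 120 genes with at least 1 FPKM in this line 49 were higher and 2 lower. Of the 37 tested genes under 1 FPKM 7 were higher and 0 lower by limma, and at an unadjusted p under 0.05 these numbers were 11 and 0. The rise was not seen in the median of the most abundant genes. Grouped by the higher of their line means, the 13 at 8 FPKM or more had a median of -0.02. Of these 13, 4 were higher and 1 lower, beside 15.65% and 29.45% of protein-coding genes in that range. The medians were 0.36, 0.29 and 0.37 at 1 to 2, 2 to 4 and 4 to 8 FPKM. In bulk RNA, fewer cells with a transcript and less of it per cell cannot be told apart. The number of higher genes fell to 36 without siI1 replicate 1, 27 without siI1 replicate 2 and 26 without siI1 replicate 3. The number of lower genes was 1 without siC replicate 1 or siI1 replicate 1, 3 without siC replicate 2, and 0 by limma without siI1 replicate 2 or siI1 replicate 3, against 4 at an unadjusted p under 0.05 with all libraries. Shares over all genes were not set beside the fits with 1 library left out. A fall particular to the zinc finger genes therefore cannot be read from them.

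ZNF121 had the smallest p among the higher genes of BE(2)-C. Its siC libraries held 6.71, 6.51 and 6.78 FPKM and its siI1 libraries 9.33, 9.46 and 10.3 FPKM. All siI1 libraries lay above the siC libraries, and the log2 fold change was 0.54 (SE 0.06, limma adjusted p = 0.0012). In Hep-G2 the same gene had 4.61, 4.99 and 4.79 FPKM with siC and 4.65, 4.37 and 4.42 FPKM with siI1. There the groups overlapped, with a log2 fold change of -0.10 (limma adjusted p = 0.33).

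ZNF561 is a neighbour of ZNF121, in the same cluster. With siC it had 3.85, 3.96 and 4.07 FPKM in BE(2)-C and with siI1 5.56, 5.40 and 5.72 FPKM. The groups were separate by more than 1 FPKM, for a log2 fold change of 0.48 (SE 0.06, limma adjusted p = 0.0023). ZNF791 had 1.87, 2.02 and 2.01 FPKM with siC and 3.03, 3.06 and 3.17 FPKM with siI1, again with no overlap. Its log2 fold change was 0.62 (SE 0.09, limma adjusted p = 0.0026). ZNF791 overlaps ZNF490 on the opposite strand, and reads of the pair may not have been told apart.

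ZNF91, known for silencing SVA retrotransposons, and ZNF274, known to bring the methyltransferase SETDB1 to the ends of zinc finger genes, were among the higher genes of BE(2)-C. They were named after their values were seen, and other genes of such function were not counted. ZNF274 had 2.06, 2.16 and 2.24 FPKM with siC and 3.04, 2.90 and 3.31 FPKM with siI1. The siI1 libraries were all above the siC libraries, at a log2 fold change of 0.50 (SE 0.09, limma adjusted p = 0.0082). ZNF91 had 0.569, 0.623 and 0.633 FPKM with siC and 1.00, 1.35 and 1.05 FPKM with siI1. Its groups did not overlap either, at a log2 fold change of 0.79 (SE 0.17, limma adjusted p = 0.015), which missed the threshold without siI1 replicate 2 (limma adjusted p from 0.029 to 0.054 over the fits with 1 library left out). In Hep-G2 neither passed the test, with log2 fold changes of -0.08 for ZNF274 (limma adjusted p = 0.69) and 0.32 for ZNF91 (limma adjusted p = 0.14).

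The genes that fell in BE(2)-C were ZNF580 and ZNF653, both GC-rich. ZNF580 had 13.6, 10.1 and 9.54 FPKM with siC and 7.93, 7.91 and 7.60 FPKM with siI1, so that siC replicate 1 stood above the rest. Its log2 fold change was -0.48 (SE 0.13, limma adjusted p = 0.030). The call was lost without any of the siI1 replicates 1, 2 or 3, the adjusted p by limma running from 0.011 to 0.084 with 1 library left out. ZNF653, which encodes a co-repressor of the nuclear receptor SF-1, had 2.17, 2.08 and 1.73 FPKM with siC and 1.53, 1.39 and 1.44 FPKM with siI1. The groups were close but separate, and the log2 fold change was -0.43 (SE 0.13, limma adjusted p = 0.043). This was lost without siC replicate 1 or 2 or siI1 replicate 1, 2 or 3 (limma adjusted p from 0.031 to 0.12 with 1 library left out). Neither gene passed after a correction for GC content or with no filter, nor did ZNF580 with no mean-variance trend or ZNF653 with median centring or the replicate number as a block.

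In Hep-G2 the zinc finger genes moved in both directions. Of the 158, 147 passed the same filter and 11 did not, all of them under 1 FPKM in this line. By limma 25 were higher and 9 lower at an adjusted p under 0.05, and 113 did not pass. These are 17.0% and 6.12% of the genes tested, beside 21.9% higher and 23% lower over all 19436 genes. The siI1 and siC libraries did not overlap in 24 of the 25 and in all 9, beside 99.1% of all genes that passed. At an unadjusted p under 0.05 the numbers were 36 and 14 of the 147. Chosen on siC alone, 22 of 140 genes were higher and 9 lower by limma, against 32 and 15 at an unadjusted p under 0.05. The 34 that passed were all among the 131 genes with at least 1 FPKM in Hep-G2. Of the 16 tested below that level, 0 passed by limma in either direction, against 2 higher and 1 lower at an unadjusted p under 0.05.

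How the Hep-G2 family lay around 0 depended on the scaling. The median log2 fold change of the 147 genes was 0.14 with the deposited FPKM, with 25 higher and 9 lower, and turned to -0.014, with 14 higher and 18 lower, once all libraries were scaled to equal sums of FPKM. The siI1 libraries of Hep-G2 summed to 273699 to 300505 FPKM and the siC libraries to 252616 to 264612, and this scaling shifted the median of all genes by -0.15. With the libraries centred on their medians 38 were higher and 5 lower. Over all genes, 16.5% were higher and 30.0% lower with equal sums, and 25.8% and 19% when centred. Relative to the median of all protein-coding genes, the zinc finger genes stood 0.18 higher as deposited, 0.18 higher when centred and 0.19 higher with equal sums. The same distance in BE(2)-C was 0.34 under all 3. Without siI1 replicate 2, 16 genes were higher in Hep-G2. The lower genes numbered 5 without siC replicate 2, 3 without siC replicate 3, siI1 replicate 2 or siI1 replicate 3, and 16 without siI1 replicate 1. These counts, too, stand without the shares over all genes in the same fits.

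**Figure D2:**
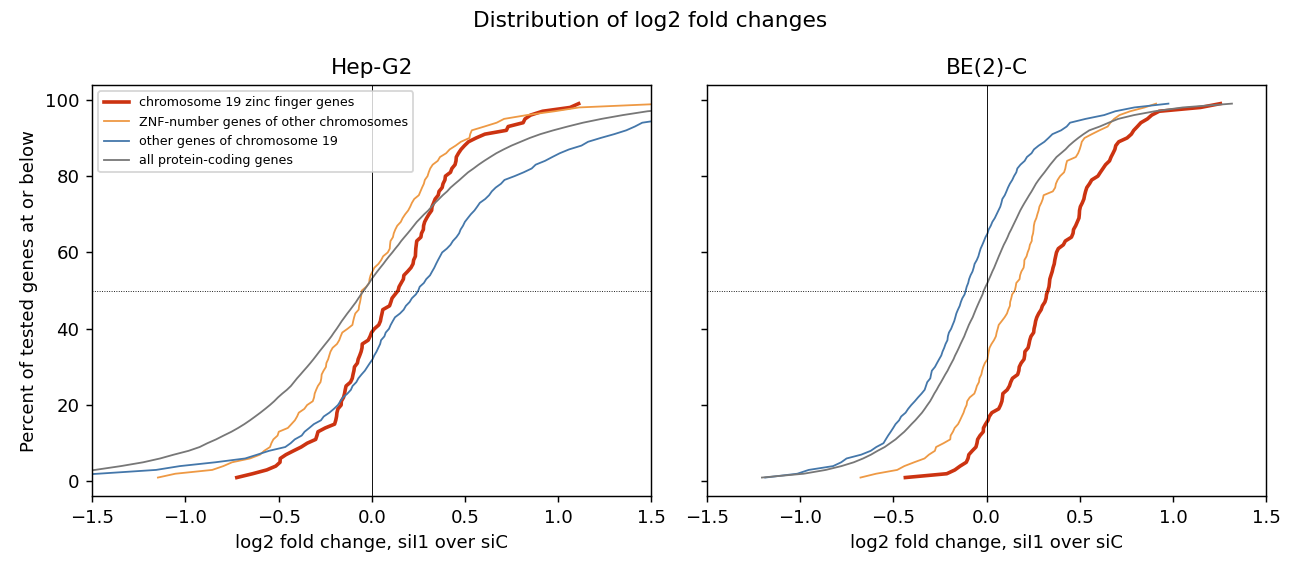
Percent of tested genes (y axis) at or below each log2 fold change of siI1 over siC (x axis) in Hep-G2 (left) and BE(2)-C (right), for the zinc finger genes of chromosome 19 (red), ZNF-number genes of other chromosomes (orange), other genes of chromosome 19 (blue) and all protein-coding genes (grey). The red line lies to the right of the grey line at its middle in both panels, with medians of 0.14 and 0.33, and the Hep-G2 median turns to -0.014 when libraries are scaled to equal sums of FPKM.

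The clearest change in Hep-G2 was that of ZNF563, at chr19:12317477-12333720 on the minus strand. It had 2.17, 2.65 and 2.43 FPKM in the siC libraries and 7.74, 8.54 and 8.36 FPKM in the siI1 libraries, means of 2.42 ± 0.24 and 8.21 ± 0.42 (SD, n = 3). All siI1 libraries were far above all siC libraries, on 96 to 354 reads each. This gave a log2 fold change of 1.73 (SE 0.10, limma adjusted p = 2.7e-05). ZNF563 was hardly detected in BE(2)-C, with 0.0489, 0.0548 and 0.226 FPKM with siC and 0.318, 0.174 and 0.253 FPKM with siI1, on 2 to 14 reads. The groups overlapped there and the log2 fold change of 0.81 did not pass (SE 0.41, limma adjusted p = 0.19). The difference between the lines was 0.92 and did not pass either (limma adjusted p = 0.082).

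ZNF331, an imprinted gene at chr19:53519527-53580269, had 1.34, 1.34 and 1.43 FPKM with siC in Hep-G2 and 2.82, 2.69 and 2.65 FPKM with siI1. Its replicates were close together and the groups wide apart, at a log2 fold change of 0.94 (SE 0.11, limma adjusted p = 0.00050). The values in BE(2)-C were 1.47, 1.57 and 1.76 FPKM with siC and 1.89, 1.87 and 2.09 FPKM with siI1. These groups did not overlap, but the log2 fold change of 0.27 did not pass the test (SE 0.12, limma adjusted p = 0.13). The effects differed between the lines by 0.67 (limma adjusted p = 0.0033).

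ZNF581 had 8.57, 10.5 and 7.93 FPKM with siC and 16.5, 20.6 and 22.0 FPKM with siI1 in Hep-G2, a log2 fold change of 1.12 (SE 0.14, limma adjusted p = 0.00080). It started from a higher level in BE(2)-C, 28.2, 26.9 and 24.8 FPKM, and reached 34.8, 31.5 and 33.1 FPKM. The groups were separate in both lines, and the BE(2)-C log2 fold change was 0.31 (SE 0.06, limma adjusted p = 0.011). ZNF580 lies beside it and overlaps it on the plus strand, as both overlap CCDC106, so reads of these genes may have been shared or discarded and their values are uncertain. In Hep-G2 ZNF580 had 6.39, 7.66 and 6.70 FPKM with siC and 7.88, 10.7 and 11.6 FPKM with siI1. The lowest siI1 library was just above the highest siC library, at a log2 fold change of 0.52 (SE 0.15, limma adjusted p = 0.029). This call was lost without siC replicate 1 or 3 or siI1 replicate 2 or 3 (limma adjusted p from 0.0014 to 0.087 with 1 library left out). It was also lost with no mean-variance trend and after correction for GC content, with adjusted p by limma up to 0.73.

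ZNF114 was the gene that fell most in Hep-G2. At chr19:48270081-48287608 on the plus strand, it is a gene with a KRAB domain and stands apart from the large clusters. The siC libraries held 21.6, 23.5 and 24.0 FPKM and the siI1 libraries 9.24, 7.71 and 8.25 FPKM, means of 23.0 ± 1.3 and 8.40 ± 0.78 (SD, n = 3). Even the highest siI1 library stood far below the lowest siC library, on 330 to 1060 reads. The log2 fold change was -1.45 (SE 0.08, limma adjusted p = 2.9e-05). The gene was at a low level in BE(2)-C, 1.19, 1.12 and 1.00 FPKM with siC and 1.10, 1.09 and 1.35 FPKM with siI1, with overlapping groups and a log2 fold change of 0.08 (SE 0.15, limma adjusted p = 0.72). The difference of -1.53 between the lines had the smallest p of all 146 zinc finger genes tested for it (limma adjusted p = 1.4e-05).

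Other genes that fell in Hep-G2 changed less, and of these ZNF792, at a log2 fold change of -0.76, is described further on. ZNF443 had 3.37, 3.60 and 3.82 FPKM with siC and 2.63, 2.42 and 2.09 FPKM with siI1, with separate groups and a log2 fold change of -0.58 (SE 0.12, limma adjusted p = 0.0064). It overlaps a readthrough gene. ZNF615 had 1.79, 1.99 and 2.31 FPKM with siC and 1.42, 1.30 and 1.36 FPKM with siI1, giving a log2 fold change of -0.54 (SE 0.14, limma adjusted p = 0.018). Its groups were separate too, but the call was lost without siC replicate 3 or siI1 replicate 2 (limma adjusted p from 0.022 to 0.064 with 1 library left out) and after correction for GC content. Neither passed in BE(2)-C, with log2 fold changes of 0.26 for ZNF443 (limma adjusted p = 0.22) and -0.03 for ZNF615 (limma adjusted p = 0.91).

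**Figure D3:**
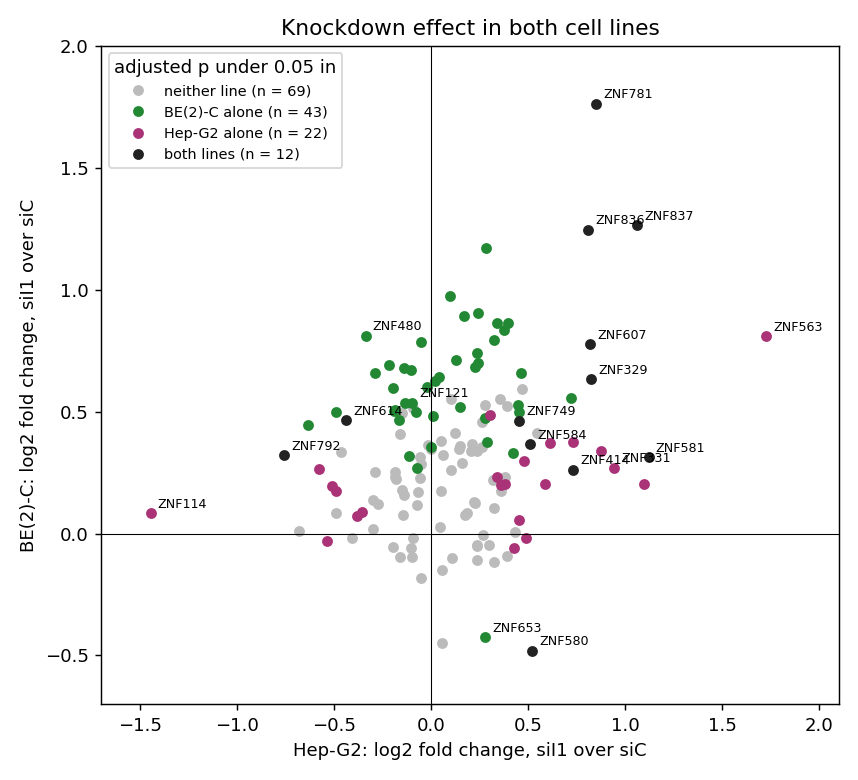
Log2 fold change of siI1 over siC in Hep-G2 (x axis) and BE(2)-C (y axis) for the 146 zinc finger genes tested in both, 1 point per gene, coloured by the line or lines in which limma gave an adjusted p under 0.05. Of the 12 black points that passed in both lines, 9 lie in the upper right and 3 in quadrants of opposite sign.

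Part of the called genes were shared by the lines. In both lines 12 passed, of which 9 were higher in both, 0 were lower in both by limma and 3 moved in opposite directions. No share of all genes that passed in both lines stands beside these counts, so they are a description only. The 9 are 36% of the genes higher in Hep-G2 and 16.1% of those higher in BE(2)-C, close to the 35.7% and 17.0% of all tested zinc finger genes that were higher in BE(2)-C and Hep-G2, respectively. Among genes chosen on siC alone 7 remain, 31.8% and 14% of those higher in each line, without ZNF781 and ZNF836. They were ZNF607, ZNF581, ZNF781, ZNF329, ZNF836, ZNF414, ZNF584, ZNF837 and ZNF749, the last named after its values were seen.

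ZNF607 had 1.06, 1.05 and 1.04 FPKM with siC and 1.73, 2.07 and 2.00 FPKM with siI1 in Hep-G2, for a log2 fold change of 0.82 (SE 0.13, limma adjusted p = 0.0026). With BE(2)-C it was 1.31, 1.00 and 1.10 FPKM with siC and 2.06, 1.82 and 2.16 FPKM with siI1, for a log2 fold change of 0.78 (SE 0.14, limma adjusted p = 0.0074). The levels and the effects were alike in both lines, with separate groups in each and a difference of 0.04 (limma adjusted p = 0.88). ZNF607 shares sequence with a readthrough gene. ZNF329 rose from 3.24, 2.74 and 3.12 to 5.01, 5.85 and 5.49 FPKM in Hep-G2 (log2 fold change 0.82, SE 0.10, limma adjusted p = 0.00073). It went from 1.62, 1.81 and 1.83 to 2.28, 2.79 and 3.33 FPKM in BE(2)-C (log2 fold change 0.63, SE 0.15, limma adjusted p = 0.020). All siI1 libraries lay above all siC libraries in both lines, and the BE(2)-C call was lost without siC replicate 1 or siI1 replicate 2 or 3 (limma adjusted p from 0.012 to 0.061 with 1 library left out).

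ZNF781 and ZNF836 changed by large factors from very low levels in BE(2)-C. Both belong to the 158 only through their siI1 libraries in Hep-G2, so that their rise there helped to choose them. ZNF781 had 0.116, 0.129 and 0.217 FPKM there with siC and 0.626, 0.821 and 0.816 FPKM with siI1, on 6 to 42 reads. The groups were well apart, at a log2 fold change of 1.76 (SE 0.26, limma adjusted p = 0.0030). In Hep-G2 it had 0.677, 0.933 and 0.881 FPKM with siC and 1.43, 1.46 and 1.82 FPKM with siI1, again apart, at 0.85 (SE 0.18, limma adjusted p = 0.0089). It overlaps ZFP30. ZNF836 had 0.0492, 0.202 and 0.152 FPKM with siC and 0.442, 0.400 and 0.458 FPKM with siI1 in BE(2)-C, on 3 to 29 reads. Its log2 fold change of 1.25 (SE 0.33, limma adjusted p = 0.030) was lost without siC replicate 3 or siI1 replicate 1, 2 or 3 (limma adjusted p from 0.028 to 0.092 with 1 library left out), and with no filter or the replicate number as a block. In Hep-G2 ZNF836 had 0.880, 0.761 and 0.751 FPKM with siC and 1.5, 1.29 and 1.64 FPKM with siI1, with separate groups and a log2 fold change of 0.81 (SE 0.16, limma adjusted p = 0.0063). It lies opposite PPP2R1A.

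The remaining genes higher in both lines were ZNF414, ZNF584, ZNF837 and ZNF749. For ZNF414 the log2 fold change was 0.73 in Hep-G2 (limma adjusted p = 0.0057) and 0.26 in BE(2)-C (limma adjusted p = 0.035), the latter lost without any siC replicate, 1, 2 or 3, or siI1 replicate 1 or 2 (limma adjusted p from 0.034 to 0.090 with 1 library left out), or with no filter or no trend. ZNF584 gave 0.51 (limma adjusted p = 0.038) and 0.37 (limma adjusted p = 0.022). The Hep-G2 call was lost without siC replicate 2 or 3 or any siI1 replicate, 1, 2 or 3, and the BE(2)-C call without siC replicate 2 or 3 or siI1 replicate 1 or 3, with adjusted p by limma up to 0.11 and 0.071. ZNF837 varied widely within its groups: its siC libraries of BE(2)-C held 2.48, 1.16 and 1.14 FPKM and its siI1 libraries 4.05, 3.10 and 4.13 FPKM. Its siC libraries of Hep-G2 held 1.40, 0.884 and 0.686 FPKM and its siI1 libraries 1.32, 2.48 and 2.77 FPKM, so that siC replicate 1 overlapped siI1 replicate 1. The log2 fold changes were 1.06 in Hep-G2 (limma adjusted p = 0.041) and 1.27 in BE(2)-C (limma adjusted p = 0.019). The first was lost without siC replicate 2 or 3 or siI1 replicate 2 or 3 and the second without siC replicate 2 or 3 or siI1 replicate 1 or 3, with adjusted p by limma up to 0.12 and 0.059. ZNF749 had 0.45 in Hep-G2 (limma adjusted p = 0.045) and 0.46 in BE(2)-C (limma adjusted p = 0.023). Its Hep-G2 call was lost in every fit with 1 library left out but that without siC replicate 1, and its BE(2)-C call without siI1 replicate 1, 2 or 3, with adjusted p by limma up to 0.13 and 0.079. The Hep-G2 calls of ZNF584, ZNF837 and ZNF749 were also lost with no filter and with equal sums of FPKM. Those of ZNF584 and ZNF837 were lost with the block and after GC correction too, and those of ZNF837 and ZNF749 with no trend.

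Opposite effects were seen for ZNF792, ZNF614 and ZNF580. ZNF792 had 1.28, 1.68 and 2.00 FPKM with siC and 0.943, 0.973 and 0.848 FPKM with siI1 in Hep-G2, at a log2 fold change of -0.76 (SE 0.19, limma adjusted p = 0.017). Its BE(2)-C libraries held 5.25, 5.01 and 5.44 FPKM with siC and 6.62, 6.62 and 6.46 FPKM with siI1, at 0.32 (SE 0.06, limma adjusted p = 0.0083). The siI1 libraries were thus all below the siC libraries in the first line and all above them in the second, and the difference was -1.08 (limma adjusted p = 0.00087). The Hep-G2 call was lost without siC replicate 2 or 3 or siI1 replicate 3 (limma adjusted p from 0.011 to 0.056 with 1 library left out).

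ZNF614 had 5.79, 5.57 and 5.52 FPKM with siC and 5.11, 3.97 and 3.44 FPKM with siI1 in Hep-G2 (log2 fold change -0.44, SE 0.14, limma adjusted p = 0.042). Values in BE(2)-C were 1.61, 1.64 and 1.78 FPKM with siC and 2.17, 2.28 and 2.63 FPKM with siI1 (log2 fold change 0.47, SE 0.11, limma adjusted p = 0.023). Both pairs of groups were separate, siI1 below siC in the first line and above it in the second. The calls within the lines were lost without siC replicate 1, 2 or 3 or siI1 replicate 2 or 3 in Hep-G2, and without siC replicate 1 or 2 or siI1 replicate 2 or 3 in BE(2)-C, with adjusted p by limma up to 0.11 and 0.083. The Hep-G2 call also missed the threshold with no filter, no trend, median centring or GC correction. The difference of -0.91 (limma adjusted p = 0.0024) passed with any 1 library left out. For ZNF580, which rose in Hep-G2 and fell in BE(2)-C, the difference was 1.00 (limma adjusted p = 0.0032), and it missed the threshold after correction for GC content (limma adjusted p = 0.053, from 2.5e-06 to 0.053 over the alternatives that keep all libraries).

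Tested as a difference between the lines, 39 of 146 genes passed. The effect was more positive in Hep-G2 for 8 and more negative for 31, that is 5.48% and 21.2%, beside 18.5% and 21.7% over all 15362 genes tested. Among genes chosen on siC alone the numbers were 8 and 31 of 139. The median difference of the 146 was -0.23, against -0.05 over all protein-coding genes. Scaling to equal sums of FPKM shifted the median of all genes by -0.17 here. The 8 and 31 became 4 and 23 after correction for GC content and 6 and 49 with equal sums, beside 17.2% and 21.1%, and 13.3% and 29.5%, over all genes. Relative to protein-coding genes the median difference was -0.18 as deposited, when centred and with equal sums, but -0.04 after correction for GC content. ZNF480 was among the 4 with the smallest p. In Hep-G2 it had 3.64, 3.40 and 3.87 FPKM with siC and 3.23, 2.95 and 2.43 FPKM with siI1, and in BE(2)-C 1.54, 1.44 and 1.82 against 2.78, 2.53 and 3.35 FPKM. The siI1 libraries were below all siC libraries in Hep-G2 and above them in BE(2)-C. The log2 fold changes were -0.34 (limma adjusted p = 0.066) and 0.81 (limma adjusted p = 0.0066), and their difference was -1.15 (limma adjusted p = 0.00074).

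The 158 genes lie in clusters along the chromosome. Joining ZNF-number genes at most 1 Mb apart gave 16 clusters, numbered from the start of the chromosome, of which 14 held at least 1 of the 158. Their counts stand beside 35.7% higher and 1.27% lower among the tested zinc finger genes in BE(2)-C (13.3% and 14.8% over all genes), and 17.0% and 6.12% in Hep-G2 (21.9% and 23% over all genes). The last, cluster 16 at chr19:55476617-58481230, held 46, and 22 of them were higher and 1 lower in BE(2)-C, the median log2 fold change being 0.35. In Hep-G2 11 of its 42 tested genes were higher, near the share over all genes, and 2 lower, with a median of 0.26. Cluster 9 at chr19:36182276-37817300 had the highest median in BE(2)-C among clusters with more than 4 of the genes, 0.67, and 8 of its 12 genes were higher and 0 lower by limma there, against 9 and 0 at an unadjusted p under 0.05. In Hep-G2 2 of these 12 were higher, with a median of 0.11. ZNF781 of cluster 9, higher in both lines, and ZNF667, ZNF805 and ZNF814 of cluster 16 passed the minimum through siI1 alone.

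The shares over all genes, 13.3% higher and 14.8% lower in BE(2)-C and 21.9% and 23% in Hep-G2, apply here too. Cluster 5 at chr19:19668796-24129968 held 18, of which 8 were higher and 0 lower in BE(2)-C by limma, against 11 and 0 at an unadjusted p under 0.05, with a median of 0.50. In Hep-G2 1 of its 17 tested genes was higher, with a median of 0.11. ZNF429, ZNF430, ZNF506 and ZNF626 of cluster 5 passed the minimum through siI1 alone, ZNF429 being among the 8. Cluster counts were not made for genes chosen on siC alone, so those given are not free of that choice. Among clusters with more than 4 of the genes, cluster 12 at chr19:43525497-45076478 moved least: 1 of 12 was higher in BE(2)-C, ZNF226, with a median of 0.20, and 0 passed by limma in Hep-G2, where 0 also reached an unadjusted p under 0.05. Cluster 3 at chr19:11483427-12640098 held both ZNF563 and, among the genes that fell in Hep-G2, ZNF443, ZNF700 and ZNF799. Neighbours in it thus moved in opposite directions, 2 higher and 3 lower of 17 in Hep-G2, and 5 higher and 1 lower in BE(2)-C. ZNF799 passed only narrowly (limma adjusted p = 0.048). The other higher gene of Hep-G2 beside ZNF563 was ZNF491, which passed the minimum through siI1 alone.

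**Figure D4:**
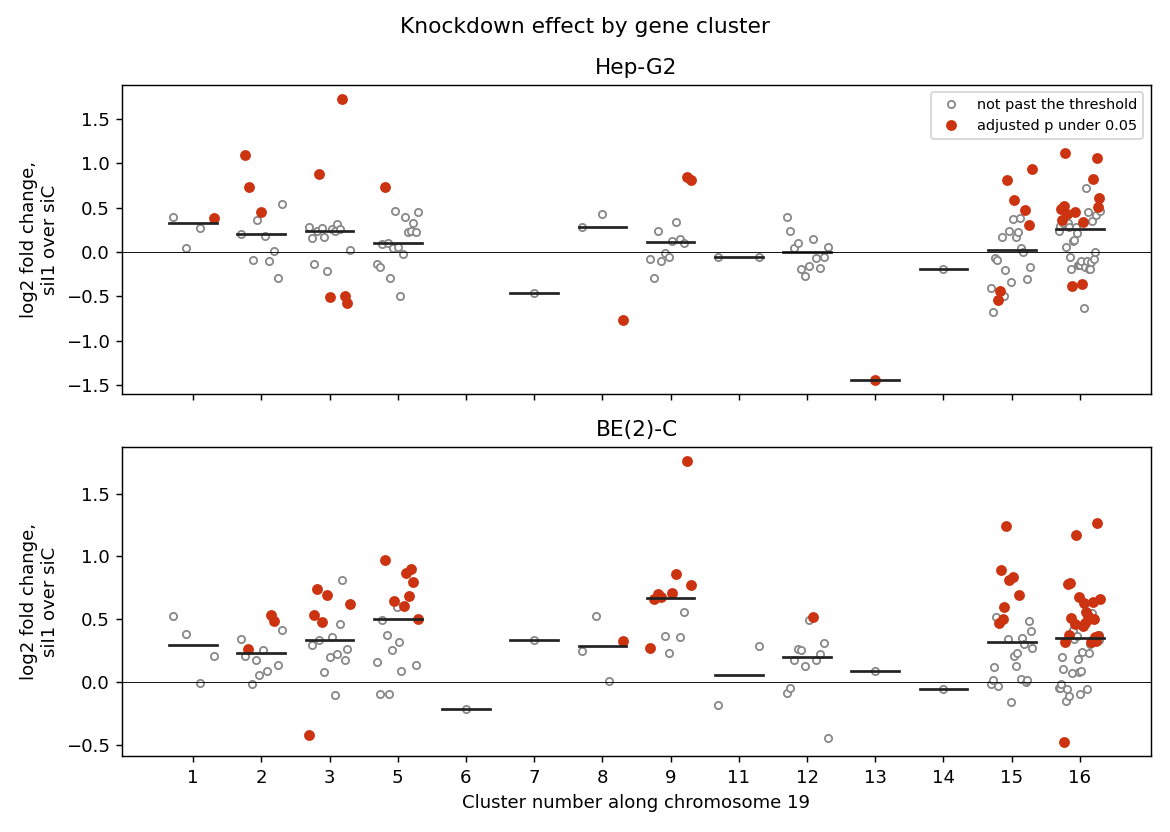
Log2 fold change of siI1 over siC (y axis) of each zinc finger gene by cluster number along chromosome 19 (x axis, in order and not to scale) in Hep-G2 (top) and BE(2)-C (bottom). Filled points passed at a limma adjusted p under 0.05, open points did not, and bars are cluster medians, which in BE(2)-C reach 0.67 in cluster 9 and 0.50 in cluster 5.

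The clusters also differ in their promoters. RefSeq promoters (GRCh38.p14, 250 bases before to 50 after the start of transcription) could be matched by symbol to 140 of the 158 genes. Words of 8 letters were counted on both strands, and those described were picked for being frequent in these promoters, so their share in them is a description. AATGTAGT was in 27 of the 140 (19.3%), against 1.15% of other protein-coding genes and 0.991% of all 35116 promoters in the table. Of the 27, 16 belonged to cluster 16, 7 to cluster 9, 3 to cluster 12 and 1 to cluster 15. The longer word TGGGTAATGTAGT was in 9, all of cluster 16, and TGGGAAATGTAGT in 12, 6 of them in cluster 9. The first was in 0.0399% and the second in 0.342% of all promoters. TCCAATCA, which includes the CCAAT box, was in 32 of the 140 (22.9%), against 1.94% of other protein-coding genes and 1.54% of all promoters. It was in all 15 matched genes of cluster 5, in 13 of 17 of cluster 3, in 3 of 4 of cluster 1 and in 1 of cluster 15.

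An example of each word is shown from genes that were higher upon knockdown, in GRCh38.p14 on the strand of the gene, with the 8-letter word or its complement in capitals. ZNF331 (chr19:53520764-53521063, plus strand) and ZNF772 (chr19:57477517-57477816, minus strand) hold AATGTAGT on the opposite strand, within TGGGAAATGTAGT and TGGGTAATGTAGT, respectively. ZNF791 (chr19:12610670-12610969, plus strand) and ZNF429 (chr19:21505352-21505651, plus strand) hold TCCAATCA as printed.
ZNF331: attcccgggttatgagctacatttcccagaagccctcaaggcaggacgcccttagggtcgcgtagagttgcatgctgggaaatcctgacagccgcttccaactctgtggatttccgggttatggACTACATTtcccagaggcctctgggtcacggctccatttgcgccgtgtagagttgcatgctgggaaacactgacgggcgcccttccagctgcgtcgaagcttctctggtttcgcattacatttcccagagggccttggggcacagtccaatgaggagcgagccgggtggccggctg
ZNF772: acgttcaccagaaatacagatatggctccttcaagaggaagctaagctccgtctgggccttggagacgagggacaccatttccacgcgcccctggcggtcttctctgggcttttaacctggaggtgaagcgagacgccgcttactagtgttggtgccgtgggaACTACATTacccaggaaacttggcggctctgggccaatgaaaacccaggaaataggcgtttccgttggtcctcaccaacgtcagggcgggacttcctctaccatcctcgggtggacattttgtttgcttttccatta
ZNF791: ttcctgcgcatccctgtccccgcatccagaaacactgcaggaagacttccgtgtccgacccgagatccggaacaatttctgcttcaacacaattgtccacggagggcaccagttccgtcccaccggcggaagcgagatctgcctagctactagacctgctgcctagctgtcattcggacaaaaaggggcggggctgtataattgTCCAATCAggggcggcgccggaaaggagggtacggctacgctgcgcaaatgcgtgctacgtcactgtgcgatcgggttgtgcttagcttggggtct
ZNF429: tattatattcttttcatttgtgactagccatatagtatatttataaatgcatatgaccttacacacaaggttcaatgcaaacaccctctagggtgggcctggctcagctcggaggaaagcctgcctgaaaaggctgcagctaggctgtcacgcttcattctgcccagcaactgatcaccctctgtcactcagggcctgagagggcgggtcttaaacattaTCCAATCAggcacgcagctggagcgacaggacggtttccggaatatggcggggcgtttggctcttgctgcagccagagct

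ZNF772 and ZNF429 were named for these promoters after their values were seen, and ZNF429 is among those that passed the minimum through siI1 alone. ZNF772 had 0.994, 1.02 and 1.54 FPKM with siC and 2.72, 3.05 and 2.49 FPKM with siI1 in BE(2)-C, with separate groups and a log2 fold change of 1.17 (SE 0.18, limma adjusted p = 0.0040). ZNF429 had 0.675, 0.926 and 0.707 FPKM with siC and 1.29, 1.69 and 1.58 FPKM with siI1, also separate, at 0.90 (SE 0.18, limma adjusted p = 0.010). Of 27 genes with AATGTAGT 12 were higher in BE(2)-C, at a median log2 fold change of 0.37, and of 113 without it 39, at a median of 0.32. Among the 12, ZNF805 and ZNF814 passed the minimum through siI1 alone, so their rise helped to choose them. Counts by word were not made for genes chosen on siC alone. For TCCAATCA 12 of 32 were higher, with a median of 0.36, and 39 of 108 without it, with a median of 0.33. No holder of either word was lower there by limma, also at an unadjusted p under 0.05, against 2 of the genes without AATGTAGT and 2 of those without TCCAATCA. In Hep-G2 4 of 25 with AATGTAGT were higher and 0 lower by limma (5 and 0 at an unadjusted p under 0.05), against 18 and 8 of 105 without it. With TCCAATCA 4 of 32 were higher and 2 lower there, and without it 18 and 6 of 98. These differences were not tested, and over all genes 13.3% were higher and 14.8% lower in BE(2)-C and 21.9% and 23% in Hep-G2, so the shares of higher genes in Hep-G2 lie below that of all genes with and without either word.

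Base composition moved with the effect in both lines, and in opposite directions. Transcripts of the 158 genes had a median GC content of 42.8%, from 33.2% to 70.9%. Among all protein-coding genes of Hep-G2, the median log2 fold change went from -0.27 in the lowest of 5 equal bins of GC content to 0.29 in the highest. From the lowest to the highest bin it went from 0.11 to -0.15 in BE(2)-C. The zinc finger genes in the lowest bin had medians of 0.05 in Hep-G2 (50 genes) and 0.38 in BE(2)-C (53 genes), above the medians of all protein-coding genes of that bin. In the highest bin they had 0.36 and -0.05, on 17 genes in each line. In the third bin of Hep-G2 their median of -0.10 (17 genes) lay below the -0.07 of all protein-coding genes. The higher calls of Hep-G2 were unevenly spread over GC content. At 60% GC or more 8 of 17 zinc finger genes were higher, beside 42.6% of all protein-coding genes in that range. From 50% to 60% 2 of 9 were higher, and from 45% to 50% 4 of 20. From 40% to 45% it was 8 of 65 zinc finger genes, and under 40% 3 of 36, beside 17.4% and 11.5% of all protein-coding genes. With fold changes corrected for GC content, a step chosen after seeing the data, 42 were higher and 6 lower in Hep-G2, with a median of 0.20, beside 22.0% and 23.5% over all genes in the same fit. With the same correction 55 were higher and 0 lower by limma in BE(2)-C, the median being 0.28, and 67 and 1 reached an unadjusted p under 0.05. Over all genes 14.8% were higher and 15.6% lower in that fit. The part of base composition, or of what goes with it, in these results was not tested beyond this correction.

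**Figure D5:**
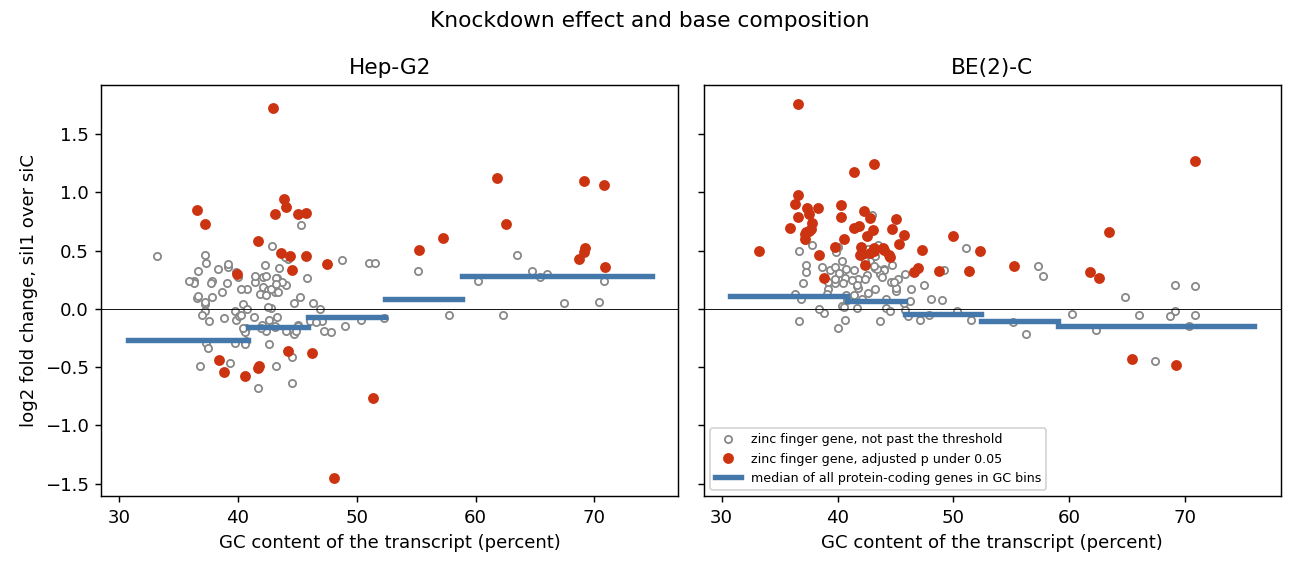
Log2 fold change of siI1 over siC (y axis) against the GC content of the transcript in percent (x axis) for the zinc finger genes in Hep-G2 (left) and BE(2)-C (right), filled where limma gave an adjusted p under 0.05. Blue bars are medians of all protein-coding genes in 5 equal bins of GC content, which go from -0.27 to 0.29 in Hep-G2 and from 0.11 to -0.15 in BE(2)-C.

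Set beside the zinc finger genes, the other lists differed between the lines. ZNF-number genes of other chromosomes, selected on the same minimum, numbered 25 higher and 32 lower of 165 in Hep-G2 (median -0.05) and 37 higher and 13 lower of 174 in BE(2)-C (median 0.15). Other protein-coding genes of chromosome 19, which are richer in GC, numbered 279 higher and 95 lower of 656 in Hep-G2 (median 0.25) and 69 higher and 194 lower of 637 in BE(2)-C (median -0.11). The 158 and their chromosomal neighbours thus had medians of opposite sign in BE(2)-C. Zinc finger genes of chromosome 19 with other kinds of names numbered 2 higher and 1 lower of 11 in Hep-G2 (median 0.13) and 5 higher and 0 lower of 10 in BE(2)-C by limma, also 5 and 0 at an unadjusted p under 0.05 (median 0.37). Over all genes of Hep-G2, 21.9% were higher and 23% lower, both above the shares of ZNF-number genes of other chromosomes, and of BE(2)-C 13.3% and 14.8%. No test was made between these lists.

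Co-repressors of KRAB zinc finger proteins and other silencing factors, chosen from general knowledge, were examined as a list of 17, all tested in both lines. In Hep-G2 3 were higher (CBX1, CBX5 and CHD3) and 6 lower (CHD4, FAM208A, MPHOSPH8, PPHLN1, SMARCAD1 and DAXX), that is 17.6% and 35.3% beside 21.9% and 23% over all genes, the median log2 fold change being -0.11. Those higher in BE(2)-C were ATF7IP, CBX5, MPHOSPH8, MORC2, SMARCAD1 and ATRX, 6 in all, and 1 was lower (TRIM28), that is 35.3% and 5.88% beside 13.3% and 14.8% over all genes, with a median of 0.14. TRIM28, the adaptor that KRAB domains bind, had 99.8, 89.4 and 90.6 FPKM with siC and 81.8, 78.3 and 82.2 FPKM with siI1 in BE(2)-C. The groups were separate, at a log2 fold change of -0.21 (SE 0.05, limma adjusted p = 0.029), and the call was lost without siI1 replicate 1, 2 or 3 (limma adjusted p from 0.035 to 0.10 with 1 library left out). It was also lost with no trend, median centring or GC correction, at adjusted p by limma up to 0.11. In Hep-G2 TRIM28 had 57.7, 64.0 and 60.1 FPKM with siC and 45.4, 56.2 and 56.1 FPKM with siI1, at -0.21 (SE 0.09, limma adjusted p = 0.12). All siI1 libraries lay below the siC libraries in this line too. The difference between the lines was -0.004 (limma adjusted p = 0.98).

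CBX5, the heterochromatin protein HP1 alpha, was the gene of that list higher in both lines, with log2 fold changes of 0.60 (limma adjusted p = 0.00055) and 0.30 (limma adjusted p = 0.011). MPHOSPH8, a subunit of the HUSH silencing complex, had 13.0, 12.4 and 13.2 FPKM with siC and 10.2, 9.91 and 10.1 FPKM with siI1 in Hep-G2. Its libraries of BE(2)-C held 7.92, 9.22 and 9.16 FPKM with siC and 10.2, 12.3 and 11.9 FPKM with siI1. It thus fell in the first line, at -0.35 (limma adjusted p = 0.0019), and rose in the second, at 0.38 (limma adjusted p = 0.023), with a difference of -0.73 (limma adjusted p = 0.00036). The rise was lost without siC replicate 1 or siI1 replicate 2 or 3 (limma adjusted p from 0.015 to 0.077 with 1 library left out) and with no trend. SMARCAD1, a chromatin remodeller that binds TRIM28, likewise went from -0.49 in Hep-G2 (limma adjusted p = 0.015) to 0.27 in BE(2)-C (limma adjusted p = 0.030), with a difference of -0.76 (limma adjusted p = 0.0018). Its calls were lost without siC replicate 1 or 3 or siI1 replicate 2 in Hep-G2 and without siC replicate 1 or 3 or siI1 replicate 1, 2 or 3 in BE(2)-C, with adjusted p by limma up to 0.054 and 0.10. Both were lost after GC correction as well, at 0.062 and 0.071 at most, and the BE(2)-C call with no trend.

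Overlaps and near-identical copies limit these values. Of the 158 genes, 64 overlap another gene on the same strand and 80 on the opposite strand, 110 in either way, and duplicated fingers can divide reads between paralogs. The libraries were strand-specific, but the strand setting of the counting and how shared reads were assigned are not given in the sources used here.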

How the data were processed

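Poly-A-RNA-seq libraries of Hep-G2 and BE(2)-C, 3 with siC and 3 with siI1 per line, were analysed from the gene tables that the authors deposited, 1 per line with 58174 genes each. The deposited values were taken as FPKM, a unit inferred from them. They were multiplied by the deposited gene length (the authors' value). The products were divided by the smallest of the library, taken as that of a single read. This gave whole numbers for 100% of values within a tolerance of 0.01. It shows a division by length and by a constant per library, while the labels do not state how the scaling was made. The submitters' processing notes name cutadapt 1.14, HISAT2 2.1.0, SAMtools 1.5, featureCounts 1.5.3 and edgeR 3.30.3, with hg38 as the genome, and library sizes were scaled with TMM. The tables' columns of the authors' own comparisons (log fold change, p-value, FDR) were not used.

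Fold changes are on the scale of log2(FPKM + 0.1), which understates changes of genes with low values. Genes with at least 0.1 FPKM in at least 3 of 6 libraries were tested with limma 3.58.1 (R 4.3.3) with a mean-variance trend, siI1 against siC within each table, two-sided, p-values being adjusted by Benjamini and Hochberg over the tested genes of all biotypes, with a threshold of 0.05. The difference between lines was the interaction in a fit of all 12 libraries. The fit was tested on simulated data. Python 3.11.15 was used for tables and sequence searches. An exact permutation of 3 against 3 libraries cannot give a p below 0.1. The authors call the replicates biological, but neither they nor the labels describe separate cultures, so p-values measure the spread between these libraries, which may be technical in part.

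Members and lists were chosen with earlier results of these data known. Genes named were the 4 with the smallest p per line and direction, those passing in both lines (at most 8 per direction), the 3 highest per line, the 4 with the smallest p for the difference and those next to the minimum of 1 FPKM. Exceptions are stated. Alternatives were other pseudocounts and filters, no trend, median centring, equal sums of FPKM, the replicate number as a block, voom on the recovered reads, other minimum levels, separate fits for the difference, leaving out each library and, added after seeing the data, a correction for transcript GC content (GENCODE 44) and members chosen by the siC mean or by the means of both groups. A comparison of protein classes was not run.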

Additional observations from a re-analysis of the deposited data

Results flagged for a closer look

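For these zinc finger genes the effect of the knockdown differed between the lines by the interaction test. The values are the log2 fold change in Hep-G2 minus that in BE(2)-C, and the lines also differed in siRNA dose, which cannot be told apart from the line. The difference was -1.53 for ZNF114, -1.15 for ZNF480 and -1.08 for ZNF792. It was -0.91 for both ZNF781 and ZNF614, -0.89 for ZNF772 and -0.84 for ZNF443. Smaller negative differences were -0.63 for ZNF121, -0.61 for ZNF791, -0.58 for ZNF274 and -0.47 for ZNF561. On the positive side stood ZNF580 with 1.00, ZNF581 with 0.81, ZNF653 with 0.70, ZNF331 with 0.67 and ZNF414 with 0.47. After correction for GC content ZNF561, ZNF781, ZNF580, ZNF653 and ZNF414 no longer passed. ZNF781 was also lost in 8 and ZNF414 in 9 of the 12 fits with 1 library left out. Both were lost with a pseudocount of 1, and ZNF414 with no filter, no trend or equal sums of FPKM too. No cause was tested.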

How the results depend on the processing

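The knockdown of IGF2BP1 kept its size in every alternative, running with 1 library left out from -2.18 to -2.06 in Hep-G2 and from -2.13 to -2.10 in BE(2)-C. In Hep-G2 the 25 higher zinc finger genes became 38 with median centring, 14 with equal sums of FPKM, 38 with voom on recovered reads, 42 with GC correction and 16 to 28 with 1 library left out. The 9 lower ones became 5, 18 and 15 in the first 3 of these and 3 to 16 with 1 library left out. With voom, 23.5% of all genes of Hep-G2 were higher and 24.8% lower. No shares over all genes are given for the fits with 1 library left out. The Hep-G2 median of 0.14 was 0.091 with a pseudocount of 1, 0.23 with median centring, -0.014 with equal sums and 0.20 with GC correction. In BE(2)-C the 56 higher genes became 36 with a minimum of 2 FPKM, since fewer genes were counted, and 26 to 44 with 1 library left out. The 2 lower ones became 1 with no trend, with median centring or with a minimum of 2 FPKM, 0 with no filter or GC correction (against 4 and 1 at an unadjusted p under 0.05 in limma) and 0 to 3 with 1 library left out. The BE(2)-C median of 0.33 was 0.19 with a pseudocount of 1 and 0.27 with a minimum of 2 FPKM. The 39 genes that differ between the lines became 31 to 52 with 1 library left out, 27 with GC correction and 55 with equal sums. Members chosen by the siC mean (149) or by both group means (146) moved no count by over 1.5 times. The cause was not tested in these cases. Of 64 results on named genes, 37 stayed past the threshold in every alternative and 27 fell short in at least 1, while 0 changed direction. These results had passed in the main fit and the alternatives reuse the same libraries. The lack of changes in direction is therefore no independent evidence.

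With the replicate number as a block, limma gave 24 higher and 12 lower genes for Hep-G2, and 42 higher and 1 lower for BE(2)-C. For the difference it gave 9 and 31. The same fits called 22.2% of all tested Hep-G2 genes higher, with 23.2% called lower. Of all tested BE(2)-C genes 11.5% passed upwards, against 13.6% downwards. The difference was more positive in Hep-G2 for 19.1% of all genes, while for 21.8% it was more negative. Neither the authors nor the labels state whether the replicate numbers pair the samples, and the weak correlations found here cannot settle it. Deviations of same-numbered libraries correlated at 0.0625, 0.0351 and -0.0062 for Hep-G2 and at 0.0225, -0.0102 and -0.0028 for BE(2)-C. Genes under 1 FPKM rest on few reads per library, which limits what could be detected for them.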

Other observations

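Other short words in the 140 matched promoters were counted for reference. CCAAT was in 60.7% of them against 42.2% of other protein-coding genes, CCGGAAGT in 20.7% against 7.05%, GGGCGG in 72.1% against 65.9% and TATAAA in 4.29% against 11.8%, on either strand. In all promoters of the table the shares were 34.6%, 4.14%, 45% and 11.5%. ZNF-number genes of other chromosomes held AATGTAGT in 4.08% and TCCAATCA in 8.16% of 147 promoters.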
